A study of Homo sapiens with 6 samples.

Results

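HCC827ER was set against PC-9ER over the 16306 genes of the deposited count table that holds both libraries. These are 2 human lung adenocarcinoma lines derived from the parental lines HCC827 and PC-9, both of which carry activating EGFR mutations. The members are all genes of that table, of 17160 genes listed in the series, and 12911 of them reached 1 CPM (1 count per 1000000 counts of the library, after scaling) in at least 1 of the 2 libraries. The series holds 6 libraries, 1 per line, from HCC827ER, PC-9ER, HCC827GR, PC-9GR, HCC827 and PC-9, and its design text asks which signalling pathways underlie the acquired resistance of such lines to EGFR inhibition. That text pairs parental with resistant cells, and the labels name the lines without spelling out ER or GR; the label HCC82GR was taken as HCC827GR. No agent, dose or selection scheme is given in the labels, nor whether a derived line is a clone or a pool. All 6 lines shared the same medium, RPMI with fetal bovine serum, and total RNA was sequenced after removal of ribosomal RNA with a strand-specific kit. With 1 library per line there is no spread between cultures, so differences are given by size and without a test.

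The EGFR tyrosine kinase signals through the RAS and MAPK cascade and through PI3K, and lung adenocarcinomas with activating EGFR mutations depend on it for growth and survival. Resistance to its inhibitors is known to arise through further EGFR mutations, through other receptors that feed the same cascades, or through shifts of cell state such as loss of epithelial character. Resistant lines of different parents also differ in what the tumours of origin differed in, so each gene is given here in the ER pair and then in the parental pair. The parental pair was counted in a separate table, and each ratio was taken within its own table.

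Total counts were 17292311 in HCC827ER and 17244885 in PC-9ER, against 14529331 in HCC827 and 16897449 in PC-9. Genes with at least 1 count numbered 14790, 14748, 14923 and 14750 in the same order. A count of 0 allows up to 3 counts, which is 0.197 CPM in HCC827ER and 0.153 CPM in PC-9ER. Cytosolic ribosomal protein genes took 16.2% of the counts in HCC827ER and 7.47% in PC-9ER, against 8.56% in HCC827 and 5.88% in PC-9. Epithelial keratins were abundant in both ER lines: KRT8 was at 3788 CPM in HCC827ER and 1557 CPM in PC-9ER, and KRT18 at 2866 and 984 CPM. Of the leukocyte markers 3 of 9 listed passed the minimum, with CD68 at 144 CPM in HCC827ER and 19.1 CPM in PC-9ER, and CD3D and NKG7 at 0 counts in both. Of the 6 listed fibroblast markers COL1A1 alone passed, at 2.82 CPM in HCC827ER and 36.1 CPM in PC-9ER, and DCN had 0 counts in both.

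The 2 ER lines differed at least 2-fold in 5903 genes, which is 45.7% of the 12911. HCC827ER was higher in 2966 genes (23.0%) and lower in 2937 (22.7%). Counts in the gene lists below are to be read against these shares. In the parental pair, HCC827 was higher than PC-9 by this rule in 2405 of 12915 genes (18.6%) and lower in 2518 (19.5%). The median size of the log2 ratio was 0.90 in the ER pair and 0.74 in the parental pair, and as many genes lay above 2-fold as below it under this scaling. With library sizes taken as total counts the split was 2137 higher and 4099 lower, 34.3% of calls higher in HCC827ER against 50.2%, and the median of all genes moved to -0.40 from -0.02, so list counts below are relative to the TMM scaling. The 2-fold line lies in a dense part of the distribution, with 544 genes at a size of 0.9 to 1 on the log2 scale and 532 at 1 to 1.1.

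About as many differences between the ER lines stood already between the parents as did not. Of the 2963 genes higher in HCC827ER and listed in both tables, 1418 (47.9%) were also at least 2-fold higher in HCC827 than in PC-9. Of the 2937 lower genes, 1521 (51.8%) were also lower in HCC827. Read from the parents, 59.0% of the genes higher in HCC827 and 60.5% of those lower in HCC827 were past 2-fold the same way between the ER lines. Large differences stood more often: of the 12911 genes 1348 (10.4%) were at least 4-fold higher in HCC827ER and 1209 (9.36%) at least 4-fold lower. Among the higher ones, 873 of the 1345 listed in both tables were past 2-fold the same way in the parents and 170 were under 1.5-fold there. Among the lower ones, 882 of 1209 stood in the parents and 157 were under 1.5-fold. A further 185 genes were past 2-fold in opposite directions, 86 of them higher in HCC827ER but lower in HCC827, and 99 the other way round. Across 13324 genes the log2 ratios of the 2 pairs correlated at a Pearson r of 0.76 and a Spearman rho of 0.64. This correlation is across genes, which are not independent replicates, and both pairs compare derivatives of the same 2 tumours.

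**Figure D1:**
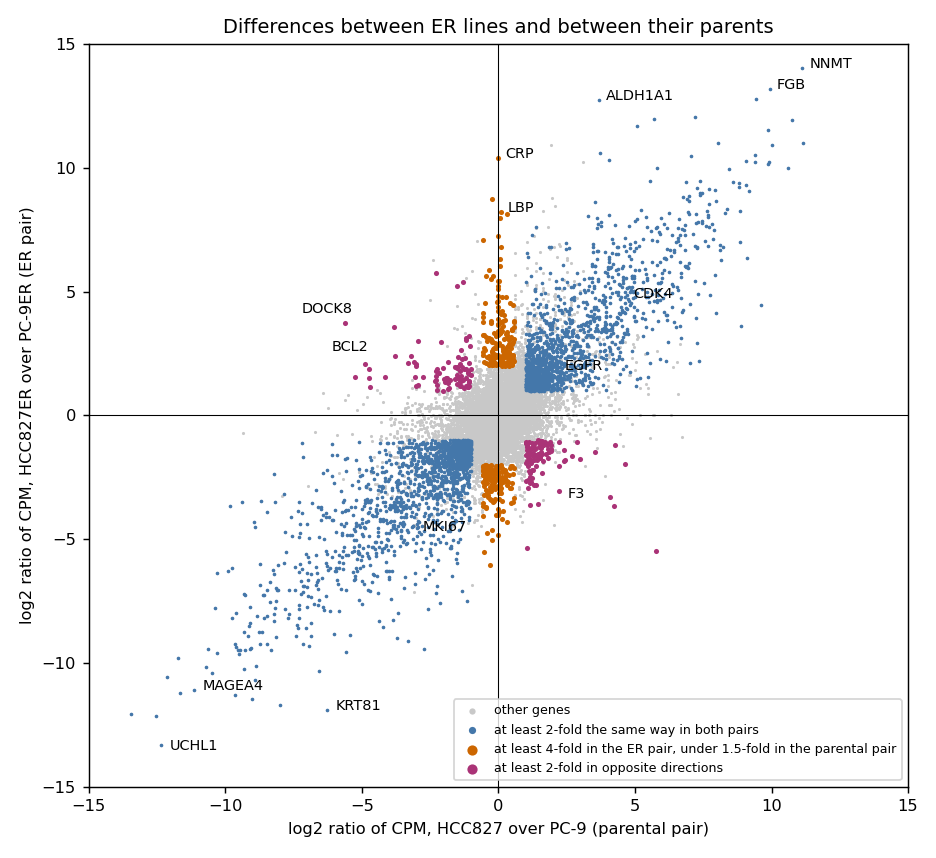
Log2 ratio of CPM of HCC827ER over PC-9ER (vertical) against that of HCC827 over PC-9 (horizontal), 1 point per gene listed in both tables. Most genes far from 0 lie along the diagonal, and the orange points mark 170 higher and 157 lower genes that are at least 4-fold apart in the ER pair and under 1.5-fold apart in the parental pair.

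Many genes were at or near 0 in one ER line and expressed in the other. In HCC827ER, 164 genes had at least 10 CPM while PC-9ER had at most 3 counts, and 72 of these were split the same way between HCC827 and PC-9. The converse, at most 3 counts in HCC827ER and at least 10 CPM in PC-9ER, held for 140 genes, 77 of them also in the parents.

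The genes at 0 in PC-9ER with high levels in HCC827ER included several that encode plasma proteins of the liver. FGB, which encodes the beta chain of the clotting protein fibrinogen, was at 1076 CPM in HCC827ER and 0 in PC-9ER, at least 7024-fold higher, and at 124 CPM in HCC827 and 0 in PC-9. The gamma chain gene FGG was at 373 CPM in HCC827ER, 0 in PC-9ER, 4.15 CPM in HCC827 and 0 in PC-9. FGA, the alpha chain gene, was at 147 CPM in HCC827ER, 0 in PC-9ER, 1.97 CPM in HCC827 and 0 in PC-9. The fibrinogen chains were therefore already split between the parents, FGG and FGA at low levels in HCC827. The library labelled PC-9GR had FGB at 24.5 CPM, FGG at 4.36 CPM and FGA at 36.5 CPM. It stands apart from PC-9 in other genes, given below, and whether it derives from PC-9 was not tested. CRP, which encodes the acute phase plasma protein C-reactive protein, was at 155 CPM in HCC827ER and 0 in PC-9ER, at least 1011-fold higher, and had 0 counts in both parents. LBP, the plasma protein that binds bacterial lipopolysaccharide, was at 34.2 CPM in HCC827ER and 0 in PC-9ER, with 0.136 CPM in HCC827 and 0.120 CPM in PC-9. SERPINA1, the antitrypsin gene, was at 238 CPM in HCC827ER and 0 in PC-9ER, against 96.0 CPM in HCC827 and 0.239 CPM in PC-9. FGA and SERPINA1 were picked after their values had been seen.

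The 250 bases upstream of the start of the fibrinogen genes and CRP are shown because all 4 genes were expressed in HCC827ER and at 0 in PC-9ER, the fibrinogen genes with a split between the parents and CRP without one. They come from RefSeq on GRCh38.p14 and read 5′ to 3′ on the gene's strand, FGB (NCBI gene 2244) at chr4:154562730-154562979 (+), FGG (2266) at chr4:154612657-154612906 (-), FGA (2243) at chr4:154590743-154590992 (-) and CRP (1401) at chr1:159714590-159714839 (-). Capitals mark matches, on either strand, to CTGGGAA, the core of the interleukin 6 response element, and to TTCNNNGAA, the palindrome bound by STAT factors.
FGB: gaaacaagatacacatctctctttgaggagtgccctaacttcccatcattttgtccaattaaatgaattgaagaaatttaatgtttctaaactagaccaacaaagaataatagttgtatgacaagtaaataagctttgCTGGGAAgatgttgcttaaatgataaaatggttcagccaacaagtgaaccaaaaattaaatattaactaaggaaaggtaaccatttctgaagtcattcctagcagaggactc
FGG: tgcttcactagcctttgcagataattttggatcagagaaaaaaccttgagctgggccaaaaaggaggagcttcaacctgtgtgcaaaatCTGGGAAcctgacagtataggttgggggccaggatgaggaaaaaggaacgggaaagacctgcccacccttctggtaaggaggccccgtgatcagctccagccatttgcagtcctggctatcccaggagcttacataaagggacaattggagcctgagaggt
FGA: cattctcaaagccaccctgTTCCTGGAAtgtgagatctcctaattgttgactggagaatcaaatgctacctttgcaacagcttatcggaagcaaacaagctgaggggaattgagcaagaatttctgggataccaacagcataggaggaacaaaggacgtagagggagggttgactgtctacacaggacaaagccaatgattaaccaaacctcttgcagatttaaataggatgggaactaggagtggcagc
CRP: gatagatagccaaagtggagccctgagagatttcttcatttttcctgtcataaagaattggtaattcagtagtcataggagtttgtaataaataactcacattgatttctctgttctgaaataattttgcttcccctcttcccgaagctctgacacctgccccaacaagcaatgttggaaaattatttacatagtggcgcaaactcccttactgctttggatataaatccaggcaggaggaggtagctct
CTGGGAA begins 112 bases before the start of FGB and 161 before that of FGG, and 9.30% of 27305 promoters in RefSeq hold it in the same window. TTCNNNGAA lies 231 bases before the start of FGA and occurs in 6.78%. The searched letters do not overlap one another and were not found in this window of CRP. A match is a string of letters and was not tested as a site.

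Other genes of the epithelial surface and of metabolism were among the most different. NNMT, the enzyme that methylates nicotinamide, was at 2821 CPM in HCC827ER and had 1 count in PC-9ER (0.0511 CPM), a ratio of 55264 with a 95% counting interval of 9918 to 2182850. It was at 286 CPM in HCC827 and 0 in PC-9. ALDH1A1, an aldehyde dehydrogenase that makes retinoic acid, was at 792 CPM in HCC827ER and 0 in PC-9ER, against 2.31 CPM in HCC827 and 0.0599 CPM in PC-9. CLDN2, a pore-forming tight junction claudin, was at 493 CPM in HCC827ER and 0 in PC-9ER, against 18.4 CPM in HCC827 and 0 in PC-9. FXYD2, a subunit of the sodium pump, was at 460.2 CPM in HCC827ER and 0 in PC-9ER, against 6.40 CPM in HCC827 and 0 in PC-9. In these 4 genes HCC827ER was the highest of the 4 libraries, and PC-9ER and PC-9 were at or near 0. The library labelled PC-9GR expressed each of them, with NNMT at 115 CPM, ALDH1A1 at 7465 CPM, CLDN2 at 151 CPM and FXYD2 at 37.2 CPM. GSTA1, a glutathione transferase, was at 254 CPM in HCC827ER and at 1 count in PC-9ER, against 1.57 CPM in HCC827 and 0 in PC-9. ABCB1, the drug efflux pump, was at 53.7 CPM in HCC827ER and 0 in PC-9ER, against 15.8 CPM in HCC827 and 0 in PC-9. Some genes were as high in the HCC827 parent as in its ER line: C12orf75 was at 238 CPM in HCC827ER and 293 in HCC827, VCAN, a matrix proteoglycan, at 138 and 124 CPM, and TM4SF18 at 117 and 197 CPM, all with 0 counts in PC-9ER and PC-9. XAGE1A was also among the 10 highest ratios, but its reads can be shared with its near-identical copy XAGE1B.

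The genes at or near 0 in HCC827ER were mostly at or near 0 in HCC827 as well. UCHL1, a ubiquitin hydrolase of neurons and neuroendocrine cells, had 0 counts in HCC827ER and 1166 CPM in PC-9ER, at least 5917-fold lower, against 0 in HCC827 and 664 CPM in PC-9. MAL, a membrane raft protein, had 0 in HCC827ER and 520.3 CPM in PC-9ER, against 0 in HCC827 and 757 CPM in PC-9. SULF2, an extracellular heparan sulfatase, had 0 and 497 CPM in the ER lines and 0 and 1415 CPM in the parents. The protease genes ADAMTS12 and KLK5 were at 0 and 1 count in HCC827ER, against 383 and 505 CPM in PC-9ER. Between the parents ADAMTS12 was at 0.681 CPM in HCC827 and 206 CPM in PC-9, and KLK5 at 0.612 and 390.2 CPM. AKAP12, a kinase scaffold, and PXDN, a matrix peroxidase, had 0 counts in HCC827ER, with 292 and 273 CPM in PC-9ER. In the parents AKAP12 was at 0.408 CPM in HCC827 and 430.4 CPM in PC-9, and PXDN at 0.0681 and 631 CPM. CEACAM6, an adhesion molecule of airway and gut epithelium, had 2 counts in HCC827ER (0.131 CPM) and 408 CPM in PC-9ER, against 2.72 CPM in HCC827 and 1357 CPM in PC-9. Its ratio of PC-9ER over HCC827ER was 3104, with a counting interval of 859 to 25634. Further genes at 0 in HCC827ER were TIMP3 (174 CPM in PC-9ER), LAMA4 (157 CPM) and SFRP1 (131 CPM), which encode an inhibitor of metalloproteinases, a laminin chain and a secreted Wnt antagonist. In PC-9 they were at 575, 279.8 and 213 CPM, and in HCC827 at most 1 count was found for any of them. KRT81 had 0 counts in HCC827ER and 437 CPM in PC-9ER, against 4.83 CPM in HCC827 and 380.1 CPM in PC-9. Since neighbouring hair keratins are near-identical, its counts are uncertain. MAGEA4, a cancer-testis antigen on the X chromosome, had 0 counts in HCC827ER and 249 CPM in PC-9ER, against 0 in HCC827 and 286 CPM in PC-9. In the list of cancer-testis antigens 9 of 11 members past the minimum were lower in HCC827ER, beside 22.7% of all genes. These 9 were also lower in HCC827, although MAGEA2, MAGEA3 and MAGEA6 share sequence. MAGEA2, MAGEA3, MAGEA4 and MAGEA6 passed the minimum through PC-9ER alone, so their direction was set by that filter.

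**Figure D2:**
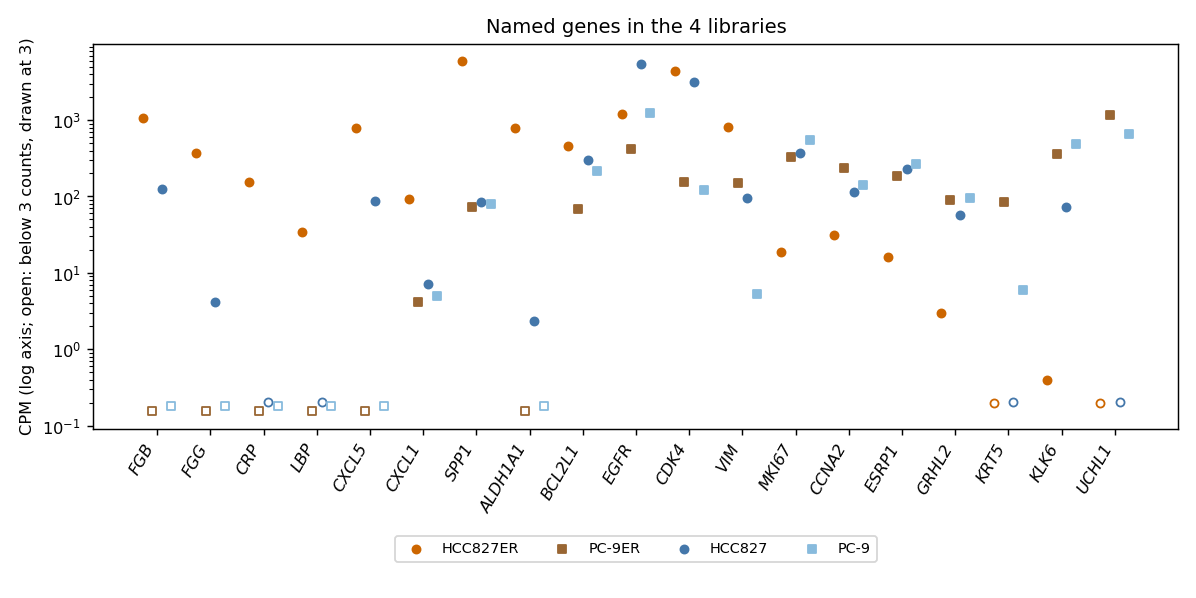
CPM, on a log axis with the floor for 0 counts drawn at 3 counts, of selected genes in HCC827ER, PC-9ER, HCC827 and PC-9. CRP lies above the floor in HCC827ER and in no other of the 4 libraries, whereas UCHL1 lies above it in PC-9ER and PC-9.

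Signalling genes come next, beginning with the receptors. EGFR was at 1216 CPM in HCC827ER and 423 CPM in PC-9ER, a ratio of 2.87 (2.80 to 2.95 by counting error), against 5389 CPM in HCC827 and 1235 CPM in PC-9. ERBB2, its main partner receptor, was at 79.7 CPM in HCC827ER and 79.1 CPM in PC-9ER, against 116 CPM in HCC827 and 137 CPM in PC-9. Of the 13 ERBB receptors, ligands and regulators past the minimum, 2 were higher and 3 lower in HCC827ER, against 6 and 3 of 15 in the parental pair. Over all genes 23.0% were higher and 22.7% lower in HCC827ER, so the lower count is near the share of all genes. The ligand NRG1, which binds ERBB3 and ERBB4, was at 20.2 CPM in HCC827ER and 0.715 CPM in PC-9ER, against 52.7 CPM in HCC827 and 0.898 CPM in PC-9. AREG, an EGFR ligand, was at 15.4 CPM in HCC827ER and 8.32 CPM in PC-9ER, under 2-fold, against 151 CPM in HCC827 and 3.23 CPM in PC-9. BTC, another EGFR ligand, lay on opposite sides in the pairs, at 5.25 CPM in HCC827ER and 11.8 CPM in PC-9ER, against 22.2 CPM in HCC827 and 6.52 CPM in PC-9.

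Among receptor kinases that can bypass EGFR, those of the FGFR family separated the ER lines most. FGFR1 was at 155 CPM in HCC827ER and 28.7 CPM in PC-9ER, a ratio of 5.40 (4.92 to 5.93), against 36.4 CPM in HCC827 and 12.9 CPM in PC-9. FGFR3 was at 25.6 CPM in HCC827ER and 0.664 CPM in PC-9ER, and FGFR4 at 56.2 and 7.30 CPM. Both also stood higher in the parent, FGFR3 at 15.1 CPM in HCC827 and 1.44 CPM in PC-9, and FGFR4 at 36.8 and 10.5 CPM. FGF2, a ligand of these receptors, was at 21.8 CPM in HCC827ER and 1 count in PC-9ER, against 23.7 CPM in HCC827 and 0.120 CPM in PC-9. AXL ran the other way, at 63.5 CPM in HCC827ER and 231 CPM in PC-9ER, with a log2 ratio of -1.86, and the parental pair had -1.51. MET was at 107 CPM in HCC827ER and 137 CPM in PC-9ER, under 2-fold, whereas it was at 609.6 CPM in HCC827 and 165 CPM in PC-9. Against 23.0% higher and 22.7% lower of all genes, 6 of the 16 bypass receptor kinases past the minimum were higher and 2 lower in HCC827ER. Of these 6 and 2, 3 and 2 stood in the parents. With total-count scaling 4 of 17 were higher and 6 lower.

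Genes induced by MAPK signalling did not move one way. Of 22 members, 9 were higher and 5 lower in HCC827ER, against 3 higher and 10 lower in the parental pair. Over all genes 23.0% were higher and 22.7% lower in HCC827ER, so the lower count is near the share of all genes. The 5 lower genes were lower in the parents too, while 7 of the 9 higher ones were not higher there. The phosphatase DUSP6, an ERK feedback inhibitor, was at 0.394 CPM in HCC827ER and 6.43 CPM in PC-9ER, against 15.7 CPM in HCC827 and 94.9 CPM in PC-9. DUSP5, which acts on ERK in the nucleus, was at 6.83 CPM in HCC827ER and 71.9 CPM in PC-9ER, against 37.8 CPM in HCC827 and 179.9 CPM in PC-9. ETV5, a PEA3-family transcription factor, was at 14.7 CPM in HCC827ER and 1.68 CPM in PC-9ER, whereas it was at 34.3 CPM in HCC827 and 77.6 CPM in PC-9. The feedback inhibitor SPRED3 was at 14.6 CPM in HCC827ER and 1.33 CPM in PC-9ER, against 11.7 CPM in HCC827 and 6.22 CPM in PC-9. DUSP5 and DUSP6 thus lay on the opposite side from ETV5 within the ER pair.

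The Hippo pathway restrains the coactivators YAP1 and WWTR1 (TAZ), which act through TEAD factors. YAP1 was at 45.4 CPM in HCC827ER and 92.7 CPM in PC-9ER, against 117 CPM in HCC827 and 207 CPM in PC-9. WWTR1 was at 115 CPM in HCC827ER and 42.8 CPM in PC-9ER, against 225 CPM in HCC827 and 103 CPM in PC-9. The 2 coactivators leaned opposite ways, and did so in both pairs. Of 30 pathway components 6 were higher and 12 lower in HCC827ER, beside 23.0% higher and 22.7% lower of all genes. Of the 6 and 12, 5 and 7 stood in the parents. With total-count scaling 2 of 29 were higher and 14 lower. The YAP1 binding protein AMOT, on the X chromosome, had 2 counts in HCC827ER and 37.2 CPM in PC-9ER, and VGLL1, a TEAD cofactor, 0 counts and 43.7 CPM. In the parents AMOT was at 0.0681 CPM in HCC827 and 122 CPM in PC-9, and VGLL1 at 0.681 and 105 CPM. In the list of YAP and TAZ target genes 11 of 21 members were higher and 5 lower, against 10 and 2 in the parental pair. The lower count is near the 22.7% of all genes. With total-count scaling 8 targets were higher and 6 lower. ANKRD1, a muscle and stress-response nuclear protein, was at 108 CPM in HCC827ER and 1.17 CPM in PC-9ER, a ratio of 92.2 (61.2 to 146), against 11.8 CPM in HCC827 and 5.57 CPM in PC-9. CCN1, a secreted matricellular protein, was at 918 CPM in HCC827ER and 145 CPM in PC-9ER, against 1770 CPM in HCC827 and 117 CPM in PC-9. Targets lower in HCC827ER were led by IGFBP3, which binds insulin-like growth factors, at 25.2 CPM in HCC827ER and 259 CPM in PC-9ER, against 155 CPM in HCC827 and 104 CPM in PC-9. NT5E, the enzyme that makes adenosine at the cell surface, was at 8.01 CPM in HCC827ER and 63.3 CPM in PC-9ER, against 192 CPM in HCC827 and 114 CPM in PC-9. TFF3, the trefoil peptide of the series title, is not listed in the table of the ER lines and has no value here.

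Epithelial genes were lower in HCC827ER more often than higher, 14 against 6 of 33, beside 22.7% lower and 23.0% higher of all genes. Between the parents 5 were lower and 7 higher of 34. Of the 14, 12 were not lower in the parental pair. GRHL2, a grainyhead factor that keeps cells epithelial, was at 2.96 CPM in HCC827ER and 89.8 CPM in PC-9ER, a ratio of PC-9ER over HCC827ER of 30.4 (22.6 to 41.8), against 57.2 CPM in HCC827 and 95.4 CPM in PC-9. ESRP1, the epithelial splicing regulator, was at 16.2 CPM in HCC827ER and 184 CPM in PC-9ER, against 232 CPM in HCC827 and 268 CPM in PC-9. EPCAM, an epithelial adhesion molecule, was at 121 CPM in HCC827ER and 357 CPM in PC-9ER, against 455 CPM in HCC827 and 388 CPM in PC-9. These 3 genes were under 2-fold apart between the parents and 2.94-fold or more apart between the ER lines. CDH1, E-cadherin, was at 146 CPM in HCC827ER and 222 CPM in PC-9ER, under 2-fold, against 609.5 CPM in HCC827 and 325 CPM in PC-9. CLDN3, a tight junction claudin, ran the other way at 49.4 CPM in HCC827ER and 3.57 CPM in PC-9ER, against 37.9 CPM in HCC827 and 10.2 CPM in PC-9. The abundant keratins KRT8 and KRT18 of this list, given above, were also higher in HCC827ER. The list summed to 10735 CPM in HCC827ER and 8874 CPM in PC-9ER, against 21077 CPM in HCC827 and 14584 CPM in PC-9. VIM, the intermediate filament vimentin of mesenchymal cells, was at 822 CPM in HCC827ER and 149 CPM in PC-9ER, against 96.9 CPM in HCC827 and 5.33 CPM in PC-9. The repressor ZEB1 was at 9.26 CPM in HCC827ER and 0.664 CPM in PC-9ER, against 6.33 CPM in HCC827 and 0.658 CPM in PC-9. The mesenchymal list as a whole was mixed, with 7 higher and 8 lower of 18. Its largest ratios were those of TWIST2, higher at 11.6 CPM in HCC827ER and 0 in PC-9ER, and of collagen genes that were lower. COL5A1 was at 1.12 CPM in HCC827ER and 27.9 CPM in PC-9ER, COL1A1 at 2.82 and 36.1 CPM, and COL6A1 at 60.8 and 466 CPM. These collagens were also past 2-fold lower in HCC827 than in PC-9.

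Of 26 matrix and protease genes 18 were lower and 5 higher in HCC827ER, and 13 of the 18 were lower in HCC827 too. The kallikrein protease gene KLK6 was at 0.394 CPM in HCC827ER and 357 CPM in PC-9ER, a ratio of PC-9ER over HCC827ER of 905 (416 to 2467), against 73.6 CPM in HCC827 and 486 CPM in PC-9. MMP14, a membrane-bound collagenase, had 2 counts in HCC827ER and 91.6 CPM in PC-9ER, against 2.59 CPM in HCC827 and 50.3 CPM in PC-9. The type IV collagen gene COL4A2 ran the other way, at 220.4 CPM in HCC827ER and 0.204 CPM in PC-9ER, against 188 CPM in HCC827 and 0.359 CPM in PC-9. Of 18 keratin and squamous genes 13 were lower and 4 higher. KRT5, a basal cell keratin, had 0 counts in HCC827ER and 85.9 CPM in PC-9ER, at least 436-fold lower, against 0 in HCC827 and 5.99 CPM in PC-9. KRT6A, a stress-induced keratin, had 0 counts in HCC827ER and 16.1 CPM in PC-9ER, against 0 in HCC827 and 0.958 CPM in PC-9. The 3 endothelial markers past the minimum were also lower in HCC827ER. All 3 passed it through PC-9ER alone, so their direction was set by that filter and is no result. CDH5, VE-cadherin, had 0 counts in HCC827ER and 28.9 CPM in PC-9ER, against 1 count in HCC827 and 153 CPM in PC-9. The 7 listed endothelial markers summed to 0.657 CPM in HCC827ER and 72.6 CPM in PC-9ER, against 1.84 CPM in HCC827 and 251 CPM in PC-9.

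The median of the inflammatory genes changed sign between the 2 pairs, although 2 single members did so past 2-fold. Of 31 genes of the NF-kB and inflammation list, 16 were higher and 7 lower in HCC827ER, with a median log2 ratio of 1.58, whereas 5 were higher and 10 lower of 28 between the parents, with a median of -0.63. Over all genes the medians were -0.02 and 0.00. Of all genes 23.0% were higher and 22.7% lower in HCC827ER, so 7 of 31 is near the lower share and is no result about the list. Among the 16 higher genes, 12 were not higher in HCC827, while 6 of the 7 lower genes were lower in HCC827 too. The chemokine CXCL5 was at 798 CPM in HCC827ER and 0 in PC-9ER, against 88.3 CPM in HCC827 and 0 in PC-9, so this split stood already in the parents, although the library labelled PC-9GR had 293 CPM. CXCL1, which draws neutrophils, was at 93.7 CPM in HCC827ER and 4.19 CPM in PC-9ER, a ratio of 22.4 (17.9 to 28.3), against 7.15 CPM in HCC827 and 4.91 CPM in PC-9. CXCL8, interleukin 8, was at 109 CPM in HCC827ER and 13.9 CPM in PC-9ER, against 8.85 CPM in HCC827 and 14.5 CPM in PC-9. CCL2, which draws monocytes, was at 29.0 CPM in HCC827ER and 0 in PC-9ER, and had 1 count in each parent. The adhesion molecules of inflamed cells followed, with ICAM1 at 713 CPM in HCC827ER and 142 CPM in PC-9ER, against 216 CPM in HCC827 and 498 CPM in PC-9. VCAM1 was at 15.6 CPM in HCC827ER and 0 in PC-9ER, against 0 in HCC827 and 1 count in PC-9. The acute phase gene SAA1, serum amyloid A, was at 842 CPM in HCC827ER and 56.2 CPM in PC-9ER, against 11.6 CPM in HCC827 and 21.1 CPM in PC-9. LCN2, an iron-sequestering lipocalin, was at 3057 CPM in HCC827ER and 888 CPM in PC-9ER, whereas it was at 174 CPM in HCC827 and 859 CPM in PC-9. Complement C3 was at 399 CPM in HCC827ER and 327 CPM in PC-9ER, close to level, although it was at 10.8 CPM in HCC827 and 829 CPM in PC-9. TNFAIP3, the feedback inhibitor A20 of NF-kB, ran against the list at 9.98 CPM in HCC827ER and 195 CPM in PC-9ER, against 22.1 CPM in HCC827 and 171 CPM in PC-9. IL11, a cytokine of the interleukin 6 family, was at 1.18 CPM in HCC827ER and 21.0 CPM in PC-9ER, and level in the parents at 5.31 CPM in HCC827 and 5.57 CPM in PC-9. The 9 listed leukocyte markers summed to 147 CPM in HCC827ER and 30.0 CPM in PC-9ER, nearly all of it in HCC827ER from the lysosomal protein CD68, at 144 CPM in HCC827ER and 19.1 CPM in PC-9ER.

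**Figure D3:**
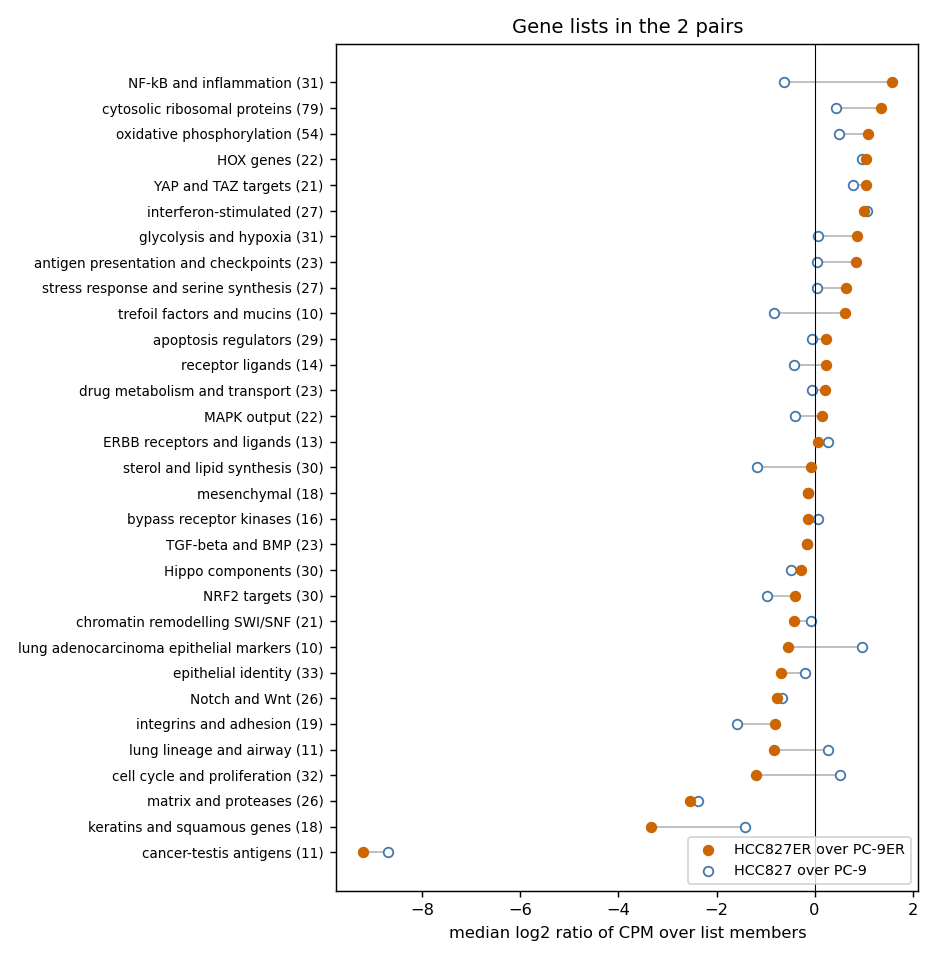
Median log2 ratio of each gene list in the ER pair (HCC827ER over PC-9ER) and in the parental pair (HCC827 over PC-9), over members past 1 CPM. The cell cycle list lies at -1.19 in the ER pair and 0.51 in the parental pair, and the NF-kB list at 1.58 and -0.63, on opposite sides of 0.

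Of 27 interferon-stimulated genes 13 were higher, 3 lower and 11 under 2-fold in HCC827ER, and 10 of the 13 were higher in HCC827 too. With total-count scaling 12 were higher and 5 lower. ISG15, a ubiquitin-like interferon-induced protein, was at 91.4 CPM in HCC827ER and 10.9 CPM in PC-9ER, against 46.2 CPM in HCC827 and 9.40 CPM in PC-9. IFITM3, which blocks viral entry, was at 483 CPM in HCC827ER and 36.5 CPM in PC-9ER, against 196 CPM in HCC827 and 32.0 CPM in PC-9. SAMHD1, a nucleotide hydrolase, had 0 counts in HCC827ER and 23.3 CPM in PC-9ER, against 0 in HCC827 and 19.8 CPM in PC-9. In antigen presentation 11 of 23 genes were higher and 5 lower, beside 23.0% higher and 22.7% lower of all genes. The lower count is thus near that share. Of the 11, 7 were not higher in the parents. With total-count scaling 8 of 24 were higher and 6 lower. B2M, the light chain of class I molecules, was at 1754 CPM in HCC827ER and 450.0 CPM in PC-9ER, against 355 CPM in HCC827 and 292 CPM in PC-9. HLA-B was at 352 CPM in HCC827ER and 54.4 CPM in PC-9ER, against 58.0 CPM in HCC827 and 52.3 CPM in PC-9, with the reservation that alleles and HLA paralogs share reads. ERAP2, a peptide-trimming enzyme, was at 2.63 CPM in HCC827ER and 105 CPM in PC-9ER, against 5.58 CPM in HCC827 and 155 CPM in PC-9.

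Of 32 cell cycle genes 17 were lower and 2 higher in HCC827ER, with a median log2 ratio of -1.19, whereas 8 were higher and 2 lower of 31 between the parents, with a median of 0.51. Of the 17 lower genes 15 were not lower in HCC827. MKI67, the marker of cycling cells, was at 19.0 CPM in HCC827ER and 324 CPM in PC-9ER, a ratio of PC-9ER over HCC827ER of 17.0 (15.1 to 19.2), against 371 CPM in HCC827 and 551 CPM in PC-9. CCNA2, the S-phase cyclin, was at 31.5 CPM in HCC827ER and 239 CPM in PC-9ER, against 116 CPM in HCC827 and 140.3 CPM in PC-9. RRM2, a subunit of ribonucleotide reductase, was at 38.5 CPM in HCC827ER and 184 CPM in PC-9ER, against 249 CPM in HCC827 and 226 CPM in PC-9. TOP2A, the topoisomerase of dividing cells, was at 53.9 CPM in HCC827ER and 188 CPM in PC-9ER, whereas it was at 598 CPM in HCC827 and 241 CPM in PC-9. In these 4 genes HCC827ER was the lowest of the 4 libraries. FANCD2, a DNA crosslink repair protein, was at 5.52 CPM in HCC827ER and 62.4 CPM in PC-9ER, against 50.9 CPM in HCC827 and 46.9 CPM in PC-9. The exceptions were CDK4, which drives entry into S phase, and CDKN1C, a CDK inhibitor. CDK4 was at 4448 CPM in HCC827ER and 153 CPM in PC-9ER, a ratio of 29.1 (28.1 to 30.2), against 3143 CPM in HCC827 and 121 CPM in PC-9. Its neighbour on chromosome 12, OS9, picked after its values had been seen, was at 4346 CPM in HCC827ER and 139 CPM in PC-9ER, against 2863 CPM in HCC827 and 162 CPM in PC-9. CDKN2A, which encodes inhibitors of CDK4 and of MDM2, was at 366 CPM in HCC827ER and 192 CPM in PC-9ER, under 2-fold, against 300.2 CPM in HCC827 and 210.3 CPM in PC-9. How many cells were cycling in either culture was not measured.

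Among 29 apoptosis regulators 9 were higher and 2 lower in HCC827ER, or 7 and 6 with total-count scaling. Under the TMM scaling 23.0% of all genes were higher and 22.7% lower. BCL2L1, which encodes the survival protein BCL-XL, was at 463 CPM in HCC827ER and 69.2 CPM in PC-9ER, a ratio of 6.69 (6.31 to 7.10), against 299 CPM in HCC827 and 217 CPM in PC-9. BIK and PMAIP1, which encode pro-death BH3 proteins, were also higher, BIK at 33.5 CPM in HCC827ER and 6.18 CPM in PC-9ER, and PMAIP1 at 100.1 and 29.9 CPM. Both differences stood already in the parents, BIK at 12.9 CPM in HCC827 and 3.95 CPM in PC-9, and PMAIP1 at 62.5 and 23.6 CPM.

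Metabolic and stress lists were less uniform. NRF2 targets, genes of the oxidative stress response, were lower in 11 and higher in 2 of 30, and 10 of the 11 were lower in HCC827 too. SLC7A11, the cystine importer, was at 5.45 CPM in HCC827ER and 115 CPM in PC-9ER, against 14.5 CPM in HCC827 and 114 CPM in PC-9. AKR1C2, an aldo-keto reductase with close paralogs, was at 487 CPM in HCC827ER and 2269 CPM in PC-9ER, against 0.749 CPM in HCC827 and 66.8 CPM in PC-9. Sterol and lipid genes were lower in 7 and higher in 3 of 30, against 22.7% lower and 23.0% higher of all genes, so the lower count is near the share of all genes. Between the parents 19 were lower and 2 higher. HMGCS1, which makes the precursor of mevalonate, was at 56.0 CPM in HCC827ER and 317 CPM in PC-9ER, against 157 CPM in HCC827 and 961 CPM in PC-9. Glycolysis and hypoxia genes were higher in 14 and lower in 4 of 31, with 6 and 4 of these standing in the parents, and 8 and 5 with total-count scaling. ENO2, an enolase of neurons and neuroendocrine cells, was at 178 CPM in HCC827ER and 4.29 CPM in PC-9ER, against 38.6 CPM in HCC827 and 2.27 CPM in PC-9. Stress response and serine synthesis genes were higher in 12 and lower in 5 of 27, or 8 and 7 with total-count scaling. The 5 lower genes are near the 22.7% of all genes. NUPR1, a stress-induced nuclear protein, was at 34.3 CPM in HCC827ER and 1.12 CPM in PC-9ER, against 3.20 CPM in HCC827 and 0.359 CPM in PC-9.

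Ribosomal protein genes were higher in HCC827ER in 63 of 79 and lower in none by the 2-fold rule, with a median log2 ratio of 1.36, against 14 higher and 1 lower in the parental pair with a median of 0.43. Nuclear genes of oxidative phosphorylation were higher in 30 of 54 and lower in none, with a median of 1.10 against 0.50 in the parents. With total-count scaling 39 ribosomal protein genes were higher and 0 lower, and 17 oxidative phosphorylation genes were higher and 2 lower. RPL23, a protein of the large ribosomal subunit, was at 6269 CPM in HCC827ER and 666 CPM in PC-9ER, against 1418 CPM in HCC827 and 657 CPM in PC-9. COX6A1, a subunit of cytochrome oxidase, was at 814 CPM in HCC827ER and 176 CPM in PC-9ER, against 379.7 CPM in HCC827 and 155 CPM in PC-9. Both lists hold short genes, and coding length moved with the ratio over all genes. In 5 equal groups of genes, from the shortest to the longest coding length, the median log2 ratio in the ER pair was 0.58, 0.21, -0.03, -0.26 and -0.61. The share of genes at least 2-fold higher in HCC827ER was 37.4% in the shortest group and 13.2% in the longest. The parental pair had the same order with a smaller spread, 0.30 in the shortest and -0.29 in the longest group, and the pair of GR lines had -0.15 and 0.09. With ratios centred on genes of like coding length, 26 ribosomal protein genes and 6 oxidative phosphorylation genes were at least 2-fold higher, and the medians were 0.80 and 0.45. The cell cycle list then kept 17 lower and 2 higher genes with a median of -1.01, and the NF-kB list had 18 higher and 7 lower with a median of 1.33. The part of coding length in any single gene's ratio was not tested.

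**Figure D4:**
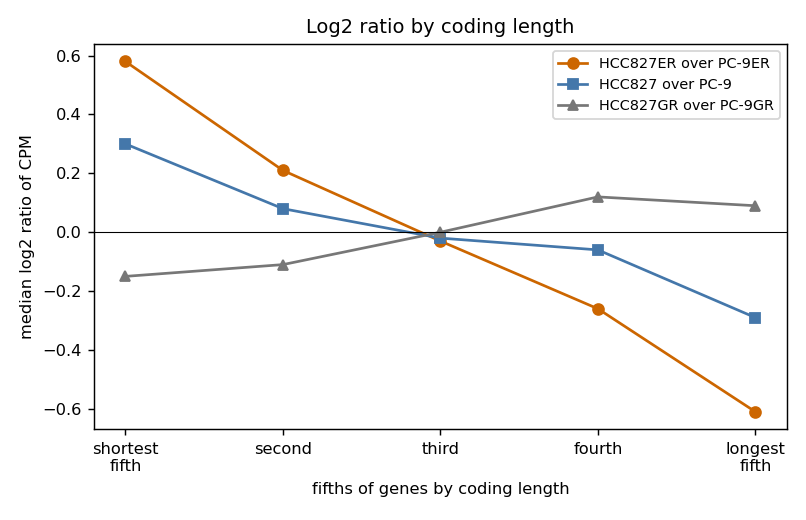
Median log2 ratio of CPM in 5 equal groups of genes by coding length, for HCC827ER over PC-9ER, HCC827 over PC-9 and HCC827GR over PC-9GR. The ER pair runs from 0.58 in the shortest group to -0.61 in the longest, the parental pair from 0.30 to -0.29, and the GR pair from -0.15 to 0.09.

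The 170 genes at least 4-fold higher in HCC827ER that were under 1.5-fold apart in the parents can be placed by line, with the reservation that levels are then set across 2 separately scaled tables. In 120 of them HCC827ER was at least 2-fold above HCC827 while PC-9ER was less than 2-fold below PC-9, in 14 the reverse held, and in 35 both lines had moved. Of the 157 lower genes, 131 had moved in HCC827ER alone, 11 in PC-9ER alone and 13 in both. A gene at or near 0 in PC-9, as CRP, UGT1A7, CCL2 and VCAM1 were, cannot lie 2-fold lower in PC-9ER under the prior count. Likewise a lower gene at or near 0 in HCC827 cannot have moved in HCC827ER. How many genes this concerns was not counted, so the split of the higher genes does not show which line moved more. CRP, LBP, CCL2 and VCAM1, given above, belong to the higher genes, as does CRYAB, a small heat shock protein, at 32.6 CPM in HCC827ER and 0 in PC-9ER, against 0.408 CPM in HCC827 and 0.299 CPM in PC-9. TMEM140 was at 48.7 CPM in HCC827ER and 0 in PC-9ER, against 0.340 CPM in HCC827 and 0.419 CPM in PC-9. GPR179, an orphan receptor of the retina, was at 23.9 CPM in HCC827ER and 2 counts in PC-9ER, a ratio of 234 (64.4 to 1941). UGT1A7, a glucuronidating enzyme whose exons are shared within the UGT1A locus, was at 17.5 CPM in HCC827ER and 0 in PC-9ER. The lower genes were led by DCLK1, a microtubule-binding kinase, with 1 count in HCC827ER and 11.9 CPM in PC-9ER, a ratio of PC-9ER over HCC827ER of 181 (32.2 to 7183). VANGL2, a planar polarity protein, had 2 counts in HCC827ER and 11.1 CPM in PC-9ER, against 2.59 CPM in HCC827 and 3.77 CPM in PC-9. MDFI, an inhibitor of myogenic factors, was at 1.71 CPM in HCC827ER and 21.0 CPM in PC-9ER, against 25.2 CPM in HCC827 and 18.2 CPM in PC-9.

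Some large parental differences were no longer there between the ER lines. Besides C3, SPNS2, a sphingosine phosphate exporter, was at 11.4 CPM in HCC827ER and 8.12 CPM in PC-9ER, against 2.52 CPM in HCC827 and 83.0 CPM in PC-9. ERP27, an endoplasmic reticulum protein, was at 1.71 CPM in HCC827ER and 1.68 CPM in PC-9ER, against 55.3 CPM in HCC827 and 0.958 CPM in PC-9. TUBB6, a beta tubulin, was at 147 CPM in HCC827ER and 124 CPM in PC-9ER, against 187 CPM in HCC827 and 8.74 CPM in PC-9. By the same rule as above, 85 genes higher and 122 genes lower in HCC827 than in PC-9 were at least 4-fold apart in the parents and under 1.5-fold apart in the ER pair.

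The pair of GR lines is given by its labels, since the library labelled PC-9GR stands apart from PC-9. In it UBE2M was at 112 CPM against 0 in PC-9, and MAL at 0 against 757 CPM. CDKN2A had 0 counts against 210.3 CPM in PC-9, and SMARCA4 was at 9.88 CPM against 362 CPM. Whether that library derives from PC-9 was not tested, so the counts that follow need not describe derivatives of the same parents. HCC827GR and PC-9GR differed at least 2-fold in 38.8% of 13066 genes. Of the genes higher in HCC827ER, 838 (28.3%) were also higher in HCC827GR than in PC-9GR, and of the lower genes 791 (26.9%) were also lower. In all 3 pairs together 540 genes were higher and 582 lower in the HCC827 derivative or parent. Of the genes at least 4-fold apart in the ER pair and under 1.5-fold in the parents, 51 of 170 higher and 31 of 157 lower ones were past 2-fold the same way in the GR pair. Over all genes of the GR pair 17.7% were higher and 21.0% lower, so the lower count is near the share of all genes and is no result about these genes.

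Differences also ran along chromosomes. Genes past the minimum in the ER pair were divided, in chromosome order, into 502 runs of 25 neighbours. Their median log2 ratio in the ER pair lay between -1.83 and 3.32. The medians of the same runs in the 2 pairs correlated at a Pearson r of 0.68, a description over neighbouring genes that share parents. A median past 0.5 either way was found in 194 runs of the ER pair and 155 of the parental pair. The highest run lay on chromosome 5 between WDR55 and HDAC3 and holds the protocadherin clusters, cell surface receptors of neurons whose members share sequence. Its median was 3.32 in the ER pair and 1.37 in the parental pair, in each the value of the single gene PCDHGC3. Other protocadherins of the run moved less or more between the pairs. The log2 ratios were 5.89 in the ER pair and 6.05 in the parental pair for PCDHB2, and 4.71 and 2.07 for PCDHB11. PCDHB2 was at 12.7 CPM in HCC827ER and 2 counts in PC-9ER, against 8.30 CPM in HCC827 and 0 in PC-9. Many protocadherins of the run passed the minimum through HCC827ER alone, such as PCDHB7 at 1.18 CPM and PCDHB16 at 1.71 CPM. Both had 0 counts in PC-9ER. PCDHAC2 and PCDHGA11 passed it through PC-9ER alone. The medians of this run, and the gap between its 2 medians, are thus in part set by that filter. The genes at the ends of this run were close to level, HDAC3, a histone deacetylase, at 93.7 CPM in HCC827ER and 89.8 CPM in PC-9ER. On chromosome 11 the run from SLC25A22 to PHLDA2 had a median of 1.85, with 21 of 25 genes higher and 0 lower, against 0.73 in the parents. A run on chromosome 8 from EYA1 to IMPA1 had a median of 1.89, against 2.30 in the parents. The lowest run, on chromosome 6 from RPS12 to HECA, had a median of -1.83 against -1.62, with 18 of 25 genes lower and 1 higher. It includes TNFAIP3, described above. Whether copy number differs at these places was not measured.

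**Figure D5:**
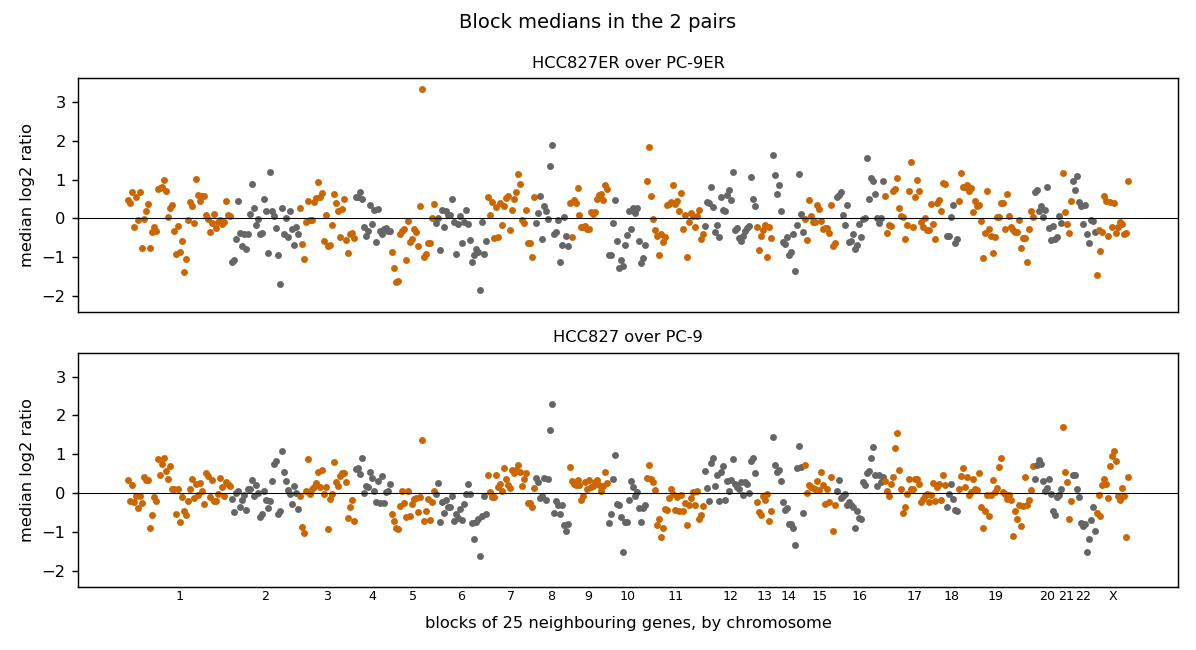
Median log2 ratio of runs of 25 neighbouring genes, past the minimum in the ER pair, along the chromosomes, in the ER pair and in the parental pair. The highest run, on chromosome 5, is at 3.32 in the ER pair and 1.37 in the parental pair, and the lowest, on chromosome 6, at -1.83 and -1.62.

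SMARCA4, the ATPase of the SWI/SNF remodelling complex, was at 176 CPM in HCC827ER and 237 CPM in PC-9ER, against 316 CPM in HCC827 and 362 CPM in PC-9. Within that complex SMARCD3 was at 30.1 CPM in HCC827ER and 2.14 CPM in PC-9ER, against 0.817 CPM in HCC827 and 1.02 CPM in PC-9, the 1 of 21 members that was higher. Of 22 HOX genes, which mark positional identity, 12 were higher and 4 lower in HCC827ER, beside 23.0% higher and 22.7% lower of all genes. Of the 12 and 4, 8 and 2 stood in the parents, where 11 were higher and 3 lower. Over all genes 59.0% of those higher in HCC827 and 60.5% of those lower were past 2-fold the same way between the ER lines. With total-count scaling 7 of 19 HOX genes were higher and 5 lower. HOXA10 was at 28.3 CPM in HCC827ER and 2.86 CPM in PC-9ER, against 30.8 CPM in HCC827 and 2.81 CPM in PC-9. HOXC13 was at 1.18 CPM in HCC827ER and 12.8 CPM in PC-9ER, against 2.99 CPM in HCC827 and 38.1 CPM in PC-9.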

How the data were processed

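Total RNA of 6 lines was sequenced, 1 library per line. The deposited values are expected counts per gene, made by the authors with a counter not given in the sources used here, and 13.2% of them in HCC827ER and 14.3% in PC-9ER were not whole. The submitters' processing notes name HISAT2 2.0.4, Cuffdiff and GRCh38.p13, without their roles. Whether counting used the strand is not given either, so overlapping genes may share reads.

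Expected counts were rounded for this work. Library sizes were scaled with TMM (edgeR 4.0.16, R 4.3.3) within each pair of lines, in the table that holds both. CPM used these effective sizes. Log2 ratios used a prior count of 2, so they understate the ratios of low genes, and folds are ratios of CPM. A gene was counted as higher or lower at 2-fold or more with at least 1 CPM in 1 library. A gene at 0 in one line is given as at least a fold against 3 counts in that library. Intervals are exact, at 95%, and cover counting error only, since reads carry no molecular identifiers.

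Without replicates no test was made. Named genes were the 10 highest and 10 lowest ratios, the 8 each way that were largest in both pairs, the 8 each way that were 4-fold or more in the ER pair and under 1.5-fold in the parents, the 5 each way that reversed, the 5 each way of the parents alone, the 4 largest of each of 35 lists, 14 set genes and the 4 most extreme runs of neighbours. All had at least 10 CPM in 1 library, other than the set genes and runs. The comparison and the lists were chosen with earlier results of these data known. Further list members in the text, such as TOP2A, SAA1, LCN2 and B2M, were taken after their values had been seen. Coding lengths came from a GENCODE annotation, for 99.2% of genes past the minimum, in place of the protein lengths first intended. Of the 16306 gene IDs, 16196 matched RefSeq. Some genes that the rule names are not reported here. The procedure was checked on simulated counts. The 9 alternatives were total counts, DESeq2 1.42.0 size factors, library sizes without ribosomal protein genes, a prior count of 0.5, no minimum and a minimum of 5 CPM, genes of both tables, coding-length centring and unrounded counts.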

Additional observations from a re-analysis of the deposited data

Results flagged for a closer look

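A set of 10 genes lay past 2-fold in opposite directions in the ER pair and the parental pair, and the difference between the pairs was not tested. They are the 5 each way whose smaller log2 ratio of the 2 pairs was largest in size, among genes with at least 10 CPM in 1 ER library, so other genes can have a larger difference. Values below are the log2 ratio of HCC827ER over PC-9ER minus that of HCC827 over PC-9.

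Higher in HCC827ER and lower in HCC827 were DOCK8, an activator of CDC42, with a difference of 9.34, CP, the copper carrier ceruloplasmin, with 8.04, BCL2, a survival protein, with 6.98, TM7SF2, a sterol reductase, with 6.16, and ITGB8, an integrin that activates latent TGF-beta, with 5.22. DOCK8 was at 23.1 CPM in HCC827ER and 1.63 CPM in PC-9ER, against 1 count in HCC827 and 9.46 CPM in PC-9. CP was at 11.8 CPM in HCC827ER and 2 counts in PC-9ER, against 0.817 CPM in HCC827 and 4.43 CPM in PC-9. BCL2 was at 12.2 CPM in HCC827ER and 2.76 CPM in PC-9ER, against 2 counts in HCC827 and 7.66 CPM in PC-9. Because 1 library of DOCK8, CP and BCL2 had so few counts, their differences depend on the prior count. TM7SF2 was at 59.2 CPM in HCC827ER and 11.2 CPM in PC-9ER, against 5.44 CPM in HCC827 and 76.3 CPM in PC-9.

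Lower in HCC827ER and higher in HCC827 were F3, tissue factor, with a difference of -5.27, and the mitotic genes KIF23 (-3.94), KIF18B (-3.22), BUB1 (-3.17) and KIF20B (-3.03). F3 was at 44.1 CPM in HCC827ER and 367 CPM in PC-9ER, against 1051 CPM in HCC827 and 226 CPM in PC-9. KIF23, a motor of cytokinesis, was at 12.7 CPM in HCC827ER and 64.9 CPM in PC-9ER, against 131 CPM in HCC827 and 43.0 CPM in PC-9. BUB1, a spindle checkpoint kinase, was at 26.3 CPM in HCC827ER and 78.3 CPM in PC-9ER, against 182 CPM in HCC827 and 59.9 CPM in PC-9.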

How the results depend on the processing

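No paired analysis was possible because each line has 1 library and no result comes from a test. Of 81 values of the 9 main counts under the 9 alternatives, 78 stayed within 1.5 times. The exceptions were the genes lower in the ER pair only, 277 with total counts against 157, and the genes reversed between the pairs, 286 with no minimum CPM and 115 with a minimum of 5 CPM against 185. No gene called at 2-fold was called the other way under any alternative. Scaling by total counts moved the median log2 ratio of the ER pair to -0.40, against -0.02, and gave 2137 higher and 4099 lower genes, so that 34.3% of calls were higher in HCC827ER against 50.2%. Leaving ribosomal protein genes out of the library sizes gave 40.2%. With total counts the medians of the ERBB (-0.28), MAPK output (-0.28) and apoptosis (-0.13) lists lay below 0, against 0.08, 0.16 and 0.24, and coding-length centring moved the bypass receptor list to 0.43, against -0.13, and the MAPK list to -0.14. Among named genes 1427 values stayed within counting error and 192 moved. With total counts 74 moved and 106 stayed, with coding-length centring 68 and 111, and without ribosomal protein genes in the library sizes 50 and 130. Under each other alternative all 180 stayed, so the pooled count understates the dependence on these choices. Among list counts 592 stayed and 38 moved, 12 of these with total counts and 9 with coding-length centring. One library per line limits every statement to these cultures, and at this depth a count of 0 cannot be told from a level under 0.197 CPM in HCC827ER.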

Other observations

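A secreted phosphoprotein and a pair of neighbours on chromosome 19 were noticed after their values had been seen. SPP1, osteopontin, a phosphoprotein of bone and of many carcinomas, was at 5861 CPM in HCC827ER and 73.6 CPM in PC-9ER, against 84.5 CPM in HCC827 and 80.7 CPM in PC-9. UBE2M, the conjugating enzyme of NEDD8, was at 225 CPM in HCC827ER and 0 in PC-9ER, against 133 CPM in HCC827 and 0 in PC-9. Its neighbour MZF1, a zinc finger factor, was at 20.9 CPM in HCC827ER and 0 in PC-9ER, against 13.3 CPM in HCC827 and 0 in PC-9. In the library labelled PC-9GR the same genes were at 112 and 17.8 CPM.

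ACACA, which makes malonyl-CoA for fatty acid synthesis, was at 641 CPM in HCC827ER and 121 CPM in PC-9ER, although it was at 343 CPM in HCC827 and 389.8 CPM in PC-9. RPS12 did not follow the other ribosomal protein genes, with 579 CPM in HCC827ER and 611 CPM in PC-9ER, against 237 CPM in HCC827 and 538 CPM in PC-9. It is the first gene of the run on chromosome 6 with the lowest median.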
